A study of Sus scrofa with 5 samples.

Results

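NFE2L2 and a long intergenic noncoding RNA (lincRNA) beside it were followed through 3 stages of additional molar development in the miniature pig. The description covers 5 of the 45614 transcripts in the deposited table: the NFE2L2 transcript TCONS_00982767, its 3 isoforms from the same genomic locus, and the lincRNA TCONS_00978370. The pair was selected on measured values, because it stands in a list of 12 lincRNAs and neighbouring genes drawn up in the study from these same libraries, in which the lincRNA was lowest and the gene transcript highest at E60. The levels of these members are therefore a description, with no test. The 4 other transcripts of the lincRNA locus are described beside them.

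Additional molars are the permanent molars that bud one after another from a dental lamina extending behind the deciduous teeth. Mandibular additional molar germs, with the dental lamina attached, came from wild-type Wuzhishan miniature pig embryos at embryonic day 50 (E50, cap stage of the first molar), day 60 (E60, early bell stage, when the second molar initiates) and day 70 (E70, late bell stage). Germs of a stage were pooled from the same litter before RNA was sequenced, so a stage stands for pooled animals. The labels list a single sample for E50 and for E60 and 3 samples for E70, whereas the table gives 1 value per stage, and that of E70 stands for the group as the authors give it. No spread between replicates could be computed for any value given here. The study reports lower rates of mapping to the Wuzhishan pig genome for E50 and E70 than for E60. With 1 value per stage, a difference between stages and one between libraries cannot be told apart.

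NFE2L2 encodes NRF2, a basic leucine zipper transcription factor. In resting cells KEAP1 hands NRF2 to a CUL3 ubiquitin ligase for degradation, and under oxidative or electrophilic stress NRF2 accumulates, pairs with small MAF proteins and binds antioxidant response elements near genes of glutathione synthesis, detoxification and iron handling. In teeth it is known from mutant mice, whose incisors lose their iron-containing pigment. LincRNAs are spliced transcripts from between protein-coding genes that encode no known protein, some of which act on genes nearby and others elsewhere in the cell.

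The NFE2L2 transcript was low at E50, high at E60 and low again at E70. Its abundance, in sequenced fragments per kilobase of transcript scaled for depth by the authors (FPKM), went from 0.674 at E50 to 40.7 at E60 and 0.479 at E70. E60 thus stood 60.4-fold above E50 and 85.0-fold above E70, and the values at E50 and E70 differed by 1.41-fold. The table holds no read counts, so the number of fragments behind each value cannot be read from it, and whether E50 and E70 differ was not tested here. In whole germs, fewer cells of a type and less RNA per cell cannot be told apart.

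The lincRNA ran the other way. TCONS_00978370 went from 3449.7 FPKM at E50 to 3.24 FPKM at E60 and 2854 FPKM at E70. It was 1065-fold lower at E60 than at E50 and 881-fold higher at E70 than at E60, with E50 and E70 within 1.21-fold of each other as deposited. That closeness depends on the scaling: on log2(FPKM + 1), E70 minus E50 was -0.27 as deposited, -1.27 after quantile normalization, 0.080 after scaling to a common median and -1.26 after scaling to a common sum. Per length of transcript, the lincRNA exceeded the NFE2L2 transcript 5122-fold at E50 and 5964-fold at E70, whereas at E60 the NFE2L2 transcript exceeded the lincRNA 12.6-fold.

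**Figure D1:**
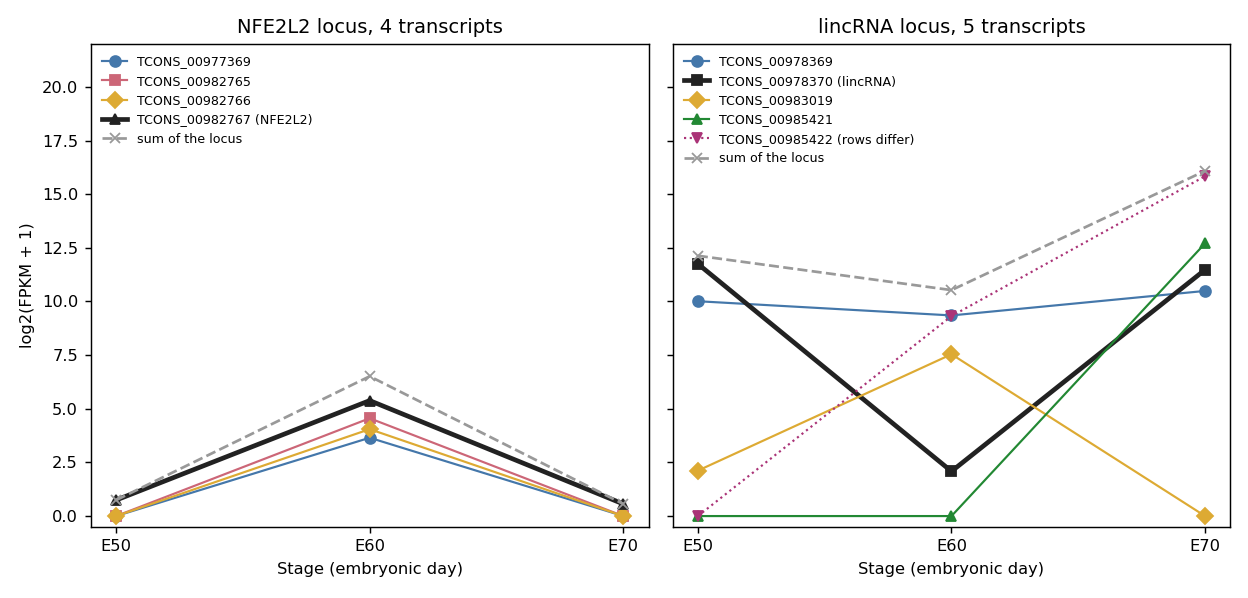
Abundance, as log2(FPKM + 1), of every transcript of the NFE2L2 locus (left) and of the lincRNA locus (right) at E50, E60 and E70; each marker is 1 deposited value, thick black lines are TCONS_00982767 and TCONS_00978370, dashed grey lines the sums of the loci, and the dotted line a transcript listed at 0 in some rows of the table. All 4 NFE2L2 transcripts peak at E60, while the 5 transcripts of the lincRNA locus peak at different stages.

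All 3 isoforms of NFE2L2 had the same pattern as the named transcript. TCONS_00982765 reached 22.5 FPKM at E60, with 1.95e-05 at E50 and 2.07e-05 at E70. TCONS_00982766 reached 15.6 FPKM and TCONS_00977369 reached 11.6 FPKM at E60, and both were listed at 0 at E50 and E70. An exact 0 in such a table can be a failed estimate, so these isoforms are only known to be listed at 0 there. The named transcript was the most abundant of the locus at every stage, but its share of the locus sum was 45.0% at E60 and nearly the whole at E50 and E70. At E60 TCONS_00982765 made up 24.9% of the sum, TCONS_00982766 17.2% and TCONS_00977369 12.8%.

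The 4 NFE2L2 transcripts together amounted to 90.3 FPKM at E60, against 0.674 at E50 and 0.479 at E70. Summed over the locus, E60 was 134-fold above E50 and 189-fold above E70, folds that rest on the values at or near 0 listed for the 3 isoforms at E50 and E70. Such a sum depends less than a single transcript on how fragments were divided among isoforms. Only TCONS_00982767 was in the list by which the pair was selected, and isoforms of a locus are estimated from the same fragments, so they are no independent measure of the gene. Of the 1793 loci of the table with 4 transcripts, 510 (28.4%) likewise had all 4 highest at E60.

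At the NFE2L2 locus the most abundant transcript was the same at all stages. For E50 and E70 that rests on 0.674 and 0.479 FPKM, with the isoforms at or near a listed 0, so nothing is read from it. Across the table, among loci with more than 1 transcript and an FPKM above 0 at both stages, the most abundant transcript differed between E50 and E60 at 5871 of 8372 loci (70.1%) and between E60 and E70 at 5530 of 7981 (69.3%). Between E50 and E70 it differed at 2144 of 7255 (29.6%). Among loci of at least 1 FPKM at both stages, which leaves out the NFE2L2 locus, these shares were 72.8%, 73.0% and 25.1%.

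The lincRNA locus held 5 transcripts, which did not move together. TCONS_00978369 varied least, with 1031, 651 and 1439 FPKM at the successive stages. TCONS_00983019 peaked at E60, with 185 FPKM, against 3.34 at E50 and a listed 0 at E70. TCONS_00985421 was listed at 0 at E50 and E60 and had 6694 FPKM at E70. A transcript highest at each of the 3 stages was thus found within a single locus, as at 218 of the 1024 loci with 5 transcripts (21.3%). For the lincRNA locus that held as deposited, after quantile normalization and after scaling to a common sum, but not after scaling to a common median, where TCONS_00978370 was highest at E70. Of the 5, only TCONS_00978370 belongs to the 450 lincRNAs catalogued in the study, which were themselves chosen as differing between stages in these libraries.

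TCONS_00985422 is the least certain transcript of the locus. It is listed at 0 at E50. For E60 and E70 some rows of the table give it 638 and 58625 FPKM and other rows give 0, with a status of too little data for a test. The values above 0 were used. The most abundant transcript of the locus was accordingly TCONS_00978370 at E50, TCONS_00978369 at E60 and TCONS_00985422 at E70, and without the last it was TCONS_00985421 at E70.

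Summed over its 5 transcripts, the lincRNA locus went from 4484 FPKM at E50 to 1478 at E60 and 69612 at E70. The sum at E60 was 3.04-fold below that at E50, against 1065-fold for the lincRNA alone, and the highest stage moved from E50 to E70. With TCONS_00985422 left out, the sums as deposited were 4484, 839.8 and 10987 FPKM, and E60 was still the lowest stage. That did not hold after scaling to a common sum, where the log2 change from E50 to E60 without it was 1.43. TCONS_00978370 made up 76.9% of the full sum for E50, 0.219% for E60 and 4.10% for E70. By these sums the lincRNA locus exceeded the NFE2L2 locus at every stage, 6658-fold at E50, 16.4-fold at E60 and 145471-fold at E70. Without TCONS_00985422 the E60 and E70 ratios were 9.30-fold and 22959.6-fold. In either case the crossing seen at E60 between the named transcripts was not seen between the loci.

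Both transcripts were then set against all others. Changes were taken on log2(FPKM + 1), a scale that understates changes of low values, and a transcript counted as changed when this differed by at least 1, that is 2-fold. From E50 to E60 the NFE2L2 transcript rose by 4.64 and its 3 isoforms by 3.65 to 4.56, so that 4 of 4 passed the threshold, as did 56.0% of all transcripts in that direction. Since the pair was selected on this contrast, nothing is read from the count. The median change of all transcripts was 1.38, and the NFE2L2 transcript lay 3.26 above it. A larger rise was found for 4683 transcripts (10.3%).

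From E60 to E70 the NFE2L2 transcript fell by 4.82 on the log2 scale, where 56.1% of all transcripts were at least 2-fold lower at E70 and the median change was -1.38. A larger fall was found for 3936 transcripts (8.63%). Between E50 and E70 it changed by -0.18. Both values lie below the pseudocount of 1, from where no fall can reach 2-fold on this scale, so nothing is read from that change beside the 22.5% of all transcripts that changed at least 2-fold in either direction. The isoforms, at or near a listed 0 at both stages, give no change to compare.

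The lincRNA lay further out. From E50 to E60 it fell by 9.67, among 14.1% of all transcripts at least 2-fold lower at E60, and 639 transcripts (1.40%) fell more. Relative to the median of all transcripts its change was -11.04. From E60 to E70 it rose by 9.40, among 14.3% of all transcripts at least 2-fold higher at E70, and 1073 transcripts (2.35%) rose more. Both comparisons share the E60 library, so the fall and the rise are not separate observations. Among the 450 catalogued lincRNAs it had the ninth lowest change from E50 to E60 and the fourth highest from E60 to E70.

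**Figure D2:**
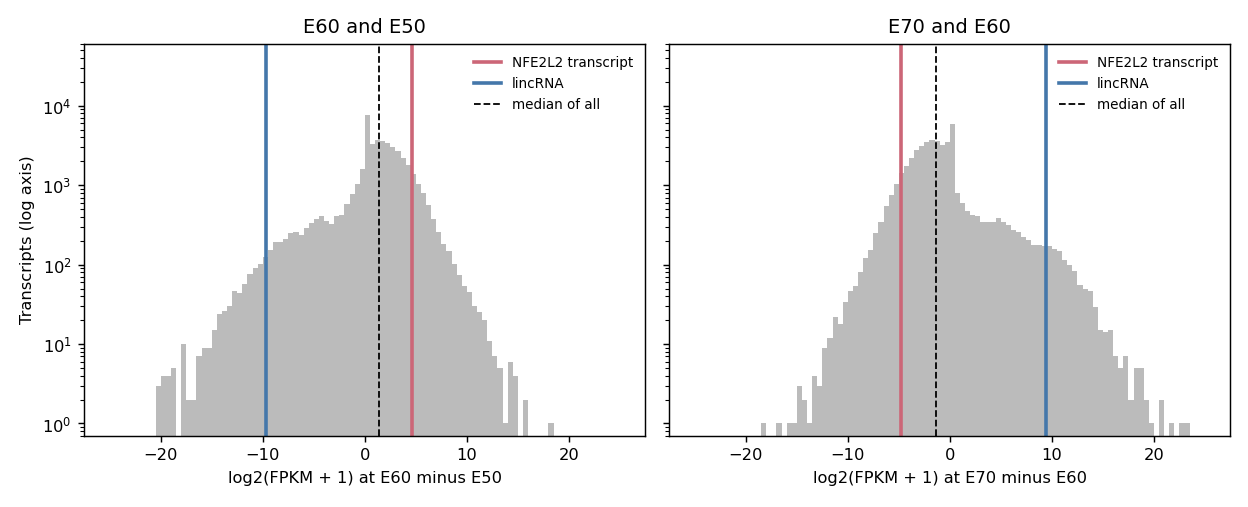
Histograms of the change in log2(FPKM + 1) of all 45614 transcripts from E50 to E60 (left) and from E60 to E70 (right), with the number of transcripts on a log axis; coloured lines mark the NFE2L2 transcript and the lincRNA, and dashed lines the median of all. The NFE2L2 transcript lies on the side to which most transcripts moved, at 4.64 and -4.82, and the lincRNA on the other side, at -9.67 and 9.40.

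How much of the table moved depends on the scaling of the stages. Over all transcripts the deposited FPKM added up to 44747113 for E50, 3117182 for E60 and 88974346 for E70. As deposited, 79.9% of the transcripts changed from E50 to E60 were higher at E60, against 53.3% after quantile normalization, 68.7% after scaling to a common median and 89.5% after scaling to a common sum. For E60 to E70, the share higher at E70 was 20.3% as deposited and 45.3%, 32.8% and 9.47% after these scalings. The median change from E50 to E60 became 0.06, 0.54 and 4.00. Under all 3 scalings the NFE2L2 transcript remained highest at E60 and the lincRNA lowest at E60. Their changes from E50 to E60 were 3.16, 3.10 and 7.81 for the NFE2L2 transcript and -10.76, -11.09 and -6.16 for the lincRNA. As the pair was selected on this contrast, these values are a description. The isoforms also remained highest at E60. Being at or near a listed 0 at E50 and E70, they could not have changed under median or sum scaling.

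Sums per locus gave a different account for the lincRNA. The NFE2L2 locus rose by 5.77 from E50 to E60, where 48.9% of the 18696 loci were at least 2-fold higher, and fell by 5.95 from E60 to E70, where 49.0% were at least 2-fold lower. The lincRNA locus fell by 1.60 and then rose by 5.56, where 17.1% of loci were at least 2-fold lower at E60 and 17.4% at least 2-fold higher at E70. Between E50 and E70 the lincRNA locus rose by 3.96, and 29.5% of loci changed at least 2-fold either way. The NFE2L2 locus, below 1 FPKM at both stages, changed by -0.18 and could not have passed 2-fold by a fall.

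The changes of the lincRNA locus were not stable. From E50 to E60 the change of -1.60 became 0.96 after quantile normalization and 2.24 after scaling to a common sum, and was -3.47 after scaling to a common median. From E60 to E70 the rise of 5.56 became 0.72 after scaling to a common sum, and -1.13 when TCONS_00985422 was left out as well. That rise was 2.11 after quantile normalization and 7.78 after scaling to a common median. From E50 to E70 the rise of 3.96 was 3.07 after quantile normalization, 4.31 after median scaling and 2.96 after sum scaling. Without TCONS_00985422 it was 1.29 as deposited, and 0.30 after scaling to a common sum. As a share of all FPKM of a stage, the locus held 0.0100%, 0.0474% and 0.0782% at the successive stages, and TCONS_00978370 held 0.00771%, 0.000104% and 0.00321%. Without TCONS_00985422 the locus held 0.0269% at E60 and 0.0123% at E70, which makes E60 its highest stage on this scale. TCONS_00978369 also turned, from -0.66 as deposited to 1.90 after quantile normalization and 3.18 after scaling to a common sum. After quantile normalization and sum scaling, then, TCONS_00978370 was lowest at E60 while the sum of its locus was not.

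In the ranking of all transcripts by FPKM, the NFE2L2 transcript stood at position 13921 for E50, 4760 for E60 and 13534 for E70. Of the 20727, 37539 and 19392 transcripts above 0 FPKM at these stages, 67.2%, 12.7% and 69.8%, respectively, exceeded the NFE2L2 transcript. The lincRNA was at position 506, 22664 and 883, in the same order of stages. Among the 450 catalogued lincRNAs it was at position 30 at E50 and 35 at E70, where their medians were 67.1 and 64.0 FPKM, and at position 223 at E60, where their median was 3.14 FPKM. The lincRNA was thus near the middle of the catalogue at E60 and near its top at E50 and E70. The catalogue was itself selected as differing between these stages, and the cause of its medians was not tested.

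The NFE2L2 locus spans 36816 bp of WZSP scaffold 66, from 7162631 to 7199446, introns included. The lincRNA locus lies 9546 bp further on, from 7208993 to 7213190, and spans 4198 bp. WZSP is the Wuzhishan pig assembly on which the authors built the transcripts, and positions count from 1. The table gives no strand or exon positions, so whether the lincRNA faces the start or the end of NFE2L2 was not determined. In RefSeq's annotation of the domestic pig (Sscrofa11.1), NFE2L2 lies on chromosome 15 with 8 transcript models, between HNRNPA3, which encodes an RNA-binding protein of the hnRNP family, and AGPS, which encodes an enzyme of ether lipid synthesis in peroxisomes. Which loci of scaffold 66 hold those neighbours, and whether the lincRNA locus itself belongs to one of them, was not determined.

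**Figure D3:**
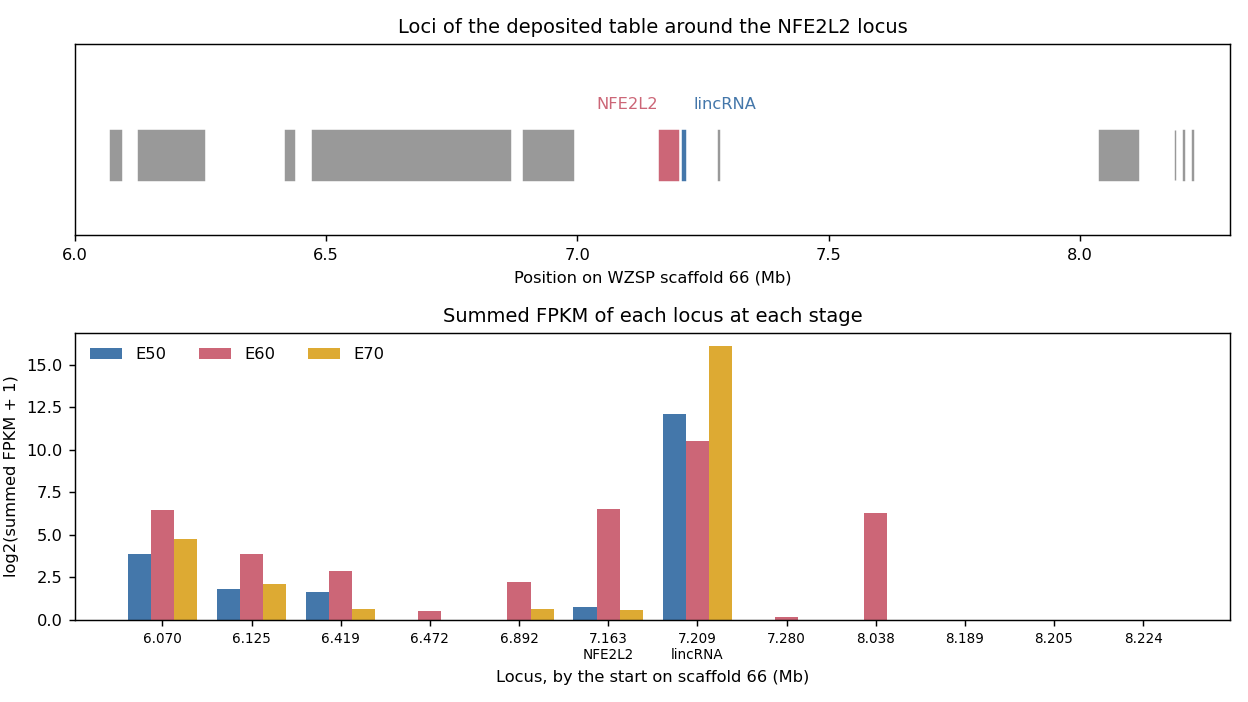
Map of the 12 loci around and including the pair on WZSP scaffold 66, to scale in Mb (top), and the FPKM of each summed over its transcripts, as log2(FPKM + 1), at E50, E60 and E70 (bottom); each bar is 1 deposited sum, and loci are labelled by their start. Of the loci shown, only the lincRNA locus had its lowest sum at E60, at 1478 FPKM as deposited, and 3 loci were listed at 0 at every stage.

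Within 200 kb of the pair the table lists 2 other loci. The nearest locus before NFE2L2 ends 171168 bp away (6891743 to 6991462) and had 3.69 FPKM at E60, 0.521 at E70 and a listed 0 at E50. The nearest after the lincRNA starts 66932 bp away (7280123 to 7282550) and had 0.129 FPKM at E60 and listed values of 0 at the other stages. Both were far below the NFE2L2 locus at E60.

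Among the 5 loci on each side, 7 of 10 were highest at E60 and the other 3 were listed at 0 throughout. The locus from 8037556 to 8116253 had 76.4 FPKM at E60 and was listed at 0 at E50 and E70, and that from 6069986 to 6091210 had 13.8, 85.2 and 26.3 FPKM. A peak at E60 was thus shared by NFE2L2 with 7 of these 10 loci, as deposited, and for the 3 listed at 0 no highest stage can be given. As deposited, it was also the most frequent pattern on scaffold 66, at 55 of 90 loci above 0 (61.1%), and in the table, at 10674 of 16598 (64.3%). How often loci peak at E60 depends on the scaling. Adjacent loci at most 10 kb apart were both highest at E60 in 38.8% of pairs as deposited. The share was 17.4% after quantile normalization, 25.1% after median scaling and 67.7% after sum scaling. By summed FPKM, the lincRNA locus ranked 4, 1 and 2 among the 98 loci of the scaffold at the successive stages, and the NFE2L2 locus 50, 13 and 55. Without TCONS_00985422 the lincRNA locus ranked 4, 2 and 3.

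A locus highest at E60 beside one lowest at E60 was not rare in the table. Of 6304 pairs of adjacent loci at most 10 kb apart, 1475 (23.4%) were of this kind by their sums, the NFE2L2 pair among them. The share was 32.9% after quantile normalization, 25.7% after scaling to a common median and 7.11% after scaling to a common sum, and the NFE2L2 pair was counted only as deposited and after median scaling.

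The other 11 pairs of the list by which NFE2L2 was selected are given beside its values. All were listed for a negative correlation in these same libraries, so nothing is read from the order of their changes. The NFE2L2 ratio also rests on only 0.674 FPKM at E50. Its gap of 9546 bp was the widest of the 12, the others lying 97 to 9150 bp apart. The NFE2L2 transcript had 60.4 times as much FPKM at E60 as at E50, the highest ratio of the 12, with RBM5, which encodes a splicing factor, next at 58.9. On log2(FPKM + 1) the order of these was reversed, with 4.67 for RBM5 and 4.64 for NFE2L2. The lincRNA likewise had the highest ratio of E50 to E60, with that beside ADAT1, which encodes a tRNA deaminase, next at 877. Only the lincRNA beside SAMD4B, at 17916 FPKM at E50, was more abundant than that beside NFE2L2 at that stage.

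As deposited, sums per gene locus ran against the listed gene transcript at some of these pairs, though not at NFE2L2. The study listed the pairs for a negative correlation between lincRNA and neighbouring gene in these libraries. All 12 gene transcripts were at least 2-fold higher at E60 than at E50, beside 56.0% of all transcripts. Of the 12 gene loci 8 were, beside 48.9% of all loci, and the loci of RPN1, AP2M1, COG4 and SAMD4B were lowest at E60. Every sum contains the listed transcript. The loci of ZDHHC18, CNOT8 and RBM5, 3 in all, hold only that transcript, and the GGPS1 sum at E60 equals it at 32.6 FPKM. At these the sum repeats the listed value, so nothing is read from the 8. The RPN1 locus, for a subunit of the oligosaccharyltransferase, had 383, 35.2 and 1508 FPKM at the successive stages, although its named transcript had 0.694, 34.7 and 1.08. The rise of the NFE2L2 locus from E50 to E60, of 5.77, was the largest among the 12 gene loci, the next being 4.67 at RBM5. The former is a sum over 4 transcripts that includes the listed one, and the latter is the listed transcript alone. Nothing is read from their order. Of the lincRNA loci, 11 were lowest at E60 by their sums, as were 20.5% of the 16598 loci above 0, and 9 were at least 2-fold lower there than at E50, beside 17.1% of all loci. As the pairs were listed for negative correlation in these same libraries, nothing is read from these counts. All these sums are as deposited, and those of the other pairs are not given under other scalings. The sum of the lincRNA locus beside NFE2L2 did run against its transcript after quantile normalization (0.96) and sum scaling (2.24).

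**Figure D4:**
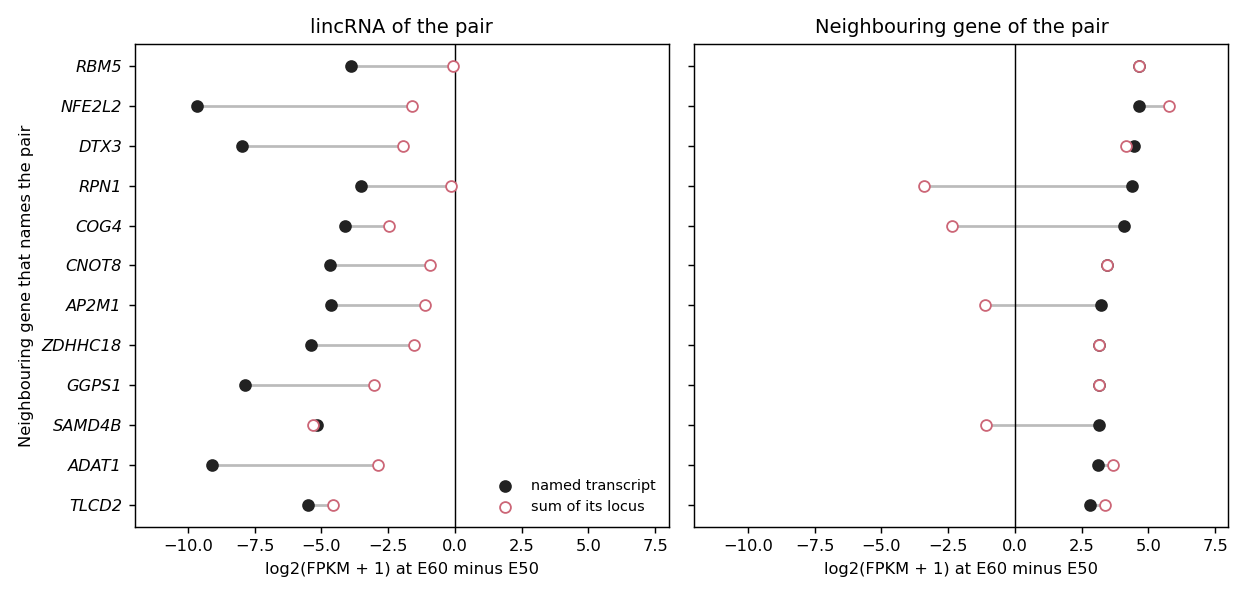
Change in log2(FPKM + 1) from E50 to E60 for the 12 pairs, lincRNAs on the left and neighbouring genes on the right; filled points are the named transcripts, open points the sums of their loci, and each row is named by its gene. For NFE2L2 the sum lies beyond the transcript (5.77 and 4.64), while for its lincRNA it lies much nearer to 0 than the transcript (-1.60 and -9.67).

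The transcripts most like each member were found by the Euclidean distance of log2(FPKM + 1) over the 3 stages. The nearest to NFE2L2 was TCONS_00987438 on scaffold 660 (158259 to 218525), at a distance of 0.12, with 39.8 FPKM at E60, 0.745 at E50 and 0.380 at E70. The next 4, TCONS_00055305, TCONS_00574357, TCONS_00350018 and TCONS_01041692, lay at 0.14 to 0.15. In all, 1826 transcripts (4.00%) were within a distance of 1, so the pattern of NFE2L2 was a common one in these libraries. None of the 5 lay on scaffold 66.

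Fewer transcripts lay close to the lincRNA, and the number of transcripts at its abundance was not set against this. Its nearest transcript, TCONS_01157671 on scaffold 93 (6315690 to 6335333), lay at a distance of 0.42, with 2.34 FPKM at E60, 3031 at E50 and 3139.8 at E70. TCONS_00860862, TCONS_01018043, TCONS_00212776 and TCONS_00173210 followed at 0.83 to 0.96, and 6 transcripts were within a distance of 1. Of the 5 nearest, TCONS_00212776 alone is among the 450 catalogued lincRNAs. With 3 values per transcript, likeness of pattern is a description and carries no test.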

How the data were processed

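RNA from pooled additional molar germs was sequenced by the authors, who aligned it with TopHat, assembled transcripts on the WZSP genome with Cufflinks (version 1.0.3 in the submitters' processing notes, a later version in the study's methods) and compared stages with Cuffdiff. The authors deposited FPKM values of each transcript for each pair of stages, with their fold changes, test statistics, p-values and q-values, none of which were used. The 3 E70 samples share 1 value, taken once. The members and lists were chosen with earlier results of these data known.

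Changes were computed on log2(FPKM + 1), and at least 2-fold on that scale counted as changed. Loci are the intervals of the table, with starts converted to count from 1, and sums are over transcripts of a locus. For 901 transcripts some rows list 0 and others a value above 0 for the same stage, and the value above 0 was used; 1 of these is in the lincRNA locus and 0 in the NFE2L2 locus. Transcript and gene pairs and the 450 lincRNAs were taken from the study's lists by identifier only. Named were the members, other transcripts of both loci, 5 loci on each side, the other listed pairs and the 5 nearest transcripts to each member. The table pairs no transcripts with gene names, so genes of the NRF2 pathway and markers of tooth tissues were not analysed here, and the labelled tissue was not checked against markers.

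Alternatives were a 4-fold threshold, a pseudocount of 0.1, quantile normalization, median scaling, sums per locus, filters on FPKM, loci within 200 kb, and Pearson correlation. Sum scaling, other handling of the rows that differ and the adjacent loci were chosen after seeing the data. The calculations were tested on simulated data, in which the stages were alike except for 200 changed transcripts and a uniform bias of E60. The deposited stages differ far more, so the test checks the calculations and not which scaling suits these data. The sum scaling did not pass in its first form, which made values small against the pseudocount. It was changed when results of that form were already known. Python 3.11.15, numpy 2.4.6, pandas 2.3.3 and matplotlib 3.10.9 were used.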

Additional observations from a re-analysis of the deposited data

How the results depend on the processing

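No paired analysis was possible because each stage has 1 deposited value. The fall and rise of the lincRNA and the rise and fall of NFE2L2, by transcript and by locus, kept their direction and stayed past 2-fold under a pseudocount of 0.1, quantile normalization, median scaling and sum scaling, with the exception of the sums of the lincRNA locus. From E50 to E60 the NFE2L2 transcript ranged from 3.10 to 7.81 and its locus from 3.31 to 8.96, and the lincRNA from -11.09 to -6.16. From E60 to E70 the NFE2L2 transcript ranged from -8.08 to -3.09 and the lincRNA from 4.89 to 11.17. Between E50 and E70 the lincRNA passed 2-fold after quantile normalization, at -1.27, and after sum scaling, at -1.26. Below 2-fold, the sign of that change turned for the lincRNA after median scaling, at 0.080, and after quantile normalization for the NFE2L2 transcript, at 0.061, and its locus, at 0.12.

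The change of the lincRNA locus from E50 to E60, a fall of -1.60 as deposited, reversed to 0.96 after quantile normalization and to 2.24 after sum scaling. With sum scaling and without the transcript of too little data, it was 1.43 from E50 to E60, -1.13 from E60 to E70 and 0.30 from E50 to E70. Sum scaling alone left 0.72 from E60 to E70. Without that transcript, or with 0 taken where rows differ, the values as deposited were -2.42, 3.71 and 1.29. The cause was not tested.

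Quantile normalization gave 30.8% of transcripts at least 2-fold higher and 27.0% lower at E60 than at E50, and 25.2% higher and 30.3% lower at E70 than at E60. Sum scaling gave 8.77% lower at E60 and 7.87% higher at E70. Among transcripts above 0, 67.2% at E50 and 69.8% at E70 exceeded NFE2L2, in place of 30.5% and 29.7% of all, and 2.44% and 4.55% exceeded the lincRNA, in place of 1.11% and 1.93%. By a Pearson correlation of FPKM above 0.999 over the 3 stages, 21918 transcripts were like NFE2L2 and 220 like the lincRNA. These were 52.2% and 0.524% of the 41979 other transcripts that varied. By distance the numbers were 1826 and 6. Of the 101 alternatives computed, 77 kept the direction and the side of 2-fold of a change or, for counts and shares, stayed within 1.5 times. That tally is no measure of robustness. The filter on FPKM left out no transcript of the NFE2L2 locus, so the shares there could not change. Leaving out TCONS_00985422 and taking 0 where rows differ gave the same sums for the lincRNA locus, and both were counted. Many others repeat the contrast by which the pair was selected. With 1 value per stage, no difference could be set against the spread between animals.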
